A study of Mus musculus with 3 samples.

Results

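The nuclear genes of oxidative phosphorylation described here are those whose symbols match the name patterns of complex I (Ndufa, Ndufb, Ndufc, Ndufs and Ndufv), complex II (Sdha to Sdhd), complex III (Uqcr and Cyc1), complex IV (Cox4 to Cox8) and ATP synthase (Atp5), with at least 1 protein-coding transcript and no pseudogene suffix. The patterns used names and no measured value. They found 78 of 55536 annotated genes, under 77 symbols, since Atp5o has 2 gene identifiers. Another 4 symbols that match, Cox6c2, Ndufa11b, Ndufb4c and Ndufs6b, had no protein-coding transcript and were left out. The patterns also miss some true subunits, among them Cox5a, Cox5b, Cox6c, Cox7b, Cox7c, Cox8a and Ndufab1. These were treated as a list of their own, together with the cytochrome c genes Cycs and Cyct. One matching gene, Atp5s, encodes a factor associated with ATP synthase and not one of its subunits.

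Oxidative phosphorylation couples electron transport along complexes I to IV of the mitochondrial inner membrane to ATP synthesis by complex V. Most subunits are encoded in the nucleus, made in the cytosol and imported, while a small set, including the central membrane subunits of complexes I, III, IV and V, is encoded in mitochondrial DNA. Complex II is entirely nuclear-encoded. Macrophages activated through TLR4 are known to shift toward glycolysis and to use succinate oxidation at complex II as a source of signals over hours, but no later time was measured here.

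The libraries hold RNA bound to chromatin, which is enriched for transcripts still attached to their genes, from bone-marrow-derived macrophages of C57BL/6J mice. All cells received lipid A, the part of lipopolysaccharide that activates TLR4, at 100 ng/ml for 20 min, and the labels call the 3 libraries of this single group biological replicates 1, 2 and 3. There is no untreated group here, so levels are given and no response. The starting RNA was 1000, 250 and 500 ng in replicates 1, 2 and 3. The labels give each replicate its own biosample and all of them 1 donor entry, without saying whether separate animals were used, so SDs measure the spread between these samples, which may be technical. Sex and age were not collected, per the labels. In such bulk samples, fewer cells expressing a gene and less RNA per cell cannot be told apart.

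The libraries held 12439931 to 16317439 expected counts. Where counts averaged 100 or more over the libraries, no pair had equal values at more than 0.523% of the genes. Genes with fewer counts were left out of that comparison. Macrophage markers were all present, with 12 of 12 at 1 TPM (transcript abundance scaled for length and library size) or more in every library, led by Ctsb, Ctsd and Cd14 at 441, 232 and 191 TPM, with the lowest, Fcgr1, at 13.3 TPM. No marker gene for mast cells (4 genes), dendritic cells (4 genes), fibroblasts (5 genes), neutrophils (6 genes), B cells (5 genes) or T and NK cells (6 genes) reached that level in every library. Alas2, at 5.81 TPM, was the single one of 5 erythroid genes, and Kdr, at 2.27 TPM, the single one of 4 endothelial genes to do so. In a second quantification, a further set of transcript tables from the authors (the second tables), 2 T and NK, 2 dendritic, 2 endothelial, 1 fibroblast and 1 erythroid marker did so. The highest means of the T and NK, dendritic and fibroblast lists there were 13.1 TPM for Cd3d, which had 0 counts in the gene tables, 2.44 TPM for Zbtb46 and 1.57 TPM for Col1a1. Those of the erythroid and endothelial lists there were 13.4 TPM for Alas2 and 5.34 TPM for Pecam1. The part of such cells in the members' levels was not tested. Immediate early genes and early NF-kB targets, the known first response to lipid A, had median levels of 80.8 and 101 TPM. TPM in these tables is scaled over all entries, and small nucleolar RNAs (snoRNAs) took 55.7%, 46.4% and 40.4% of it in replicates 1, 2 and 3. Protein-coding genes were left with 15.8%, 18.0% and 24.7%.

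The nuclear OXPHOS genes were present on chromatin at low levels. Their summed level was 291, 381 and 546 TPM in replicates 1, 2 and 3, which made 0.184%, 0.211% and 0.221% of the TPM of protein-coding genes. Replicate 3 was highest and replicate 1 lowest, in the order in which the coding share of TPM also rose and the snoRNA share fell. On the count scale the members held 0.0451%, 0.0435% and 0.0529% of all expected counts, with replicate 2 lowest. A cluster of ribosomal-RNA-like genes held 15.3%, 26.0% and 10.8% of those counts, highest where the members' share was lowest, and its part in the members' share was not tested. The median member had 2.21, 2.35 and 4.66 TPM. Replicates 1 and 2 were thus close to each other and replicate 3 was apart. In every library 49 of the 78 members reached 1 TPM, against a background of 40.6% of 22028 protein-coding genes. Another 12 members stayed below 1 TPM in all 3 libraries, and 13 averaged 10 TPM or more.

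**Figure D1:**
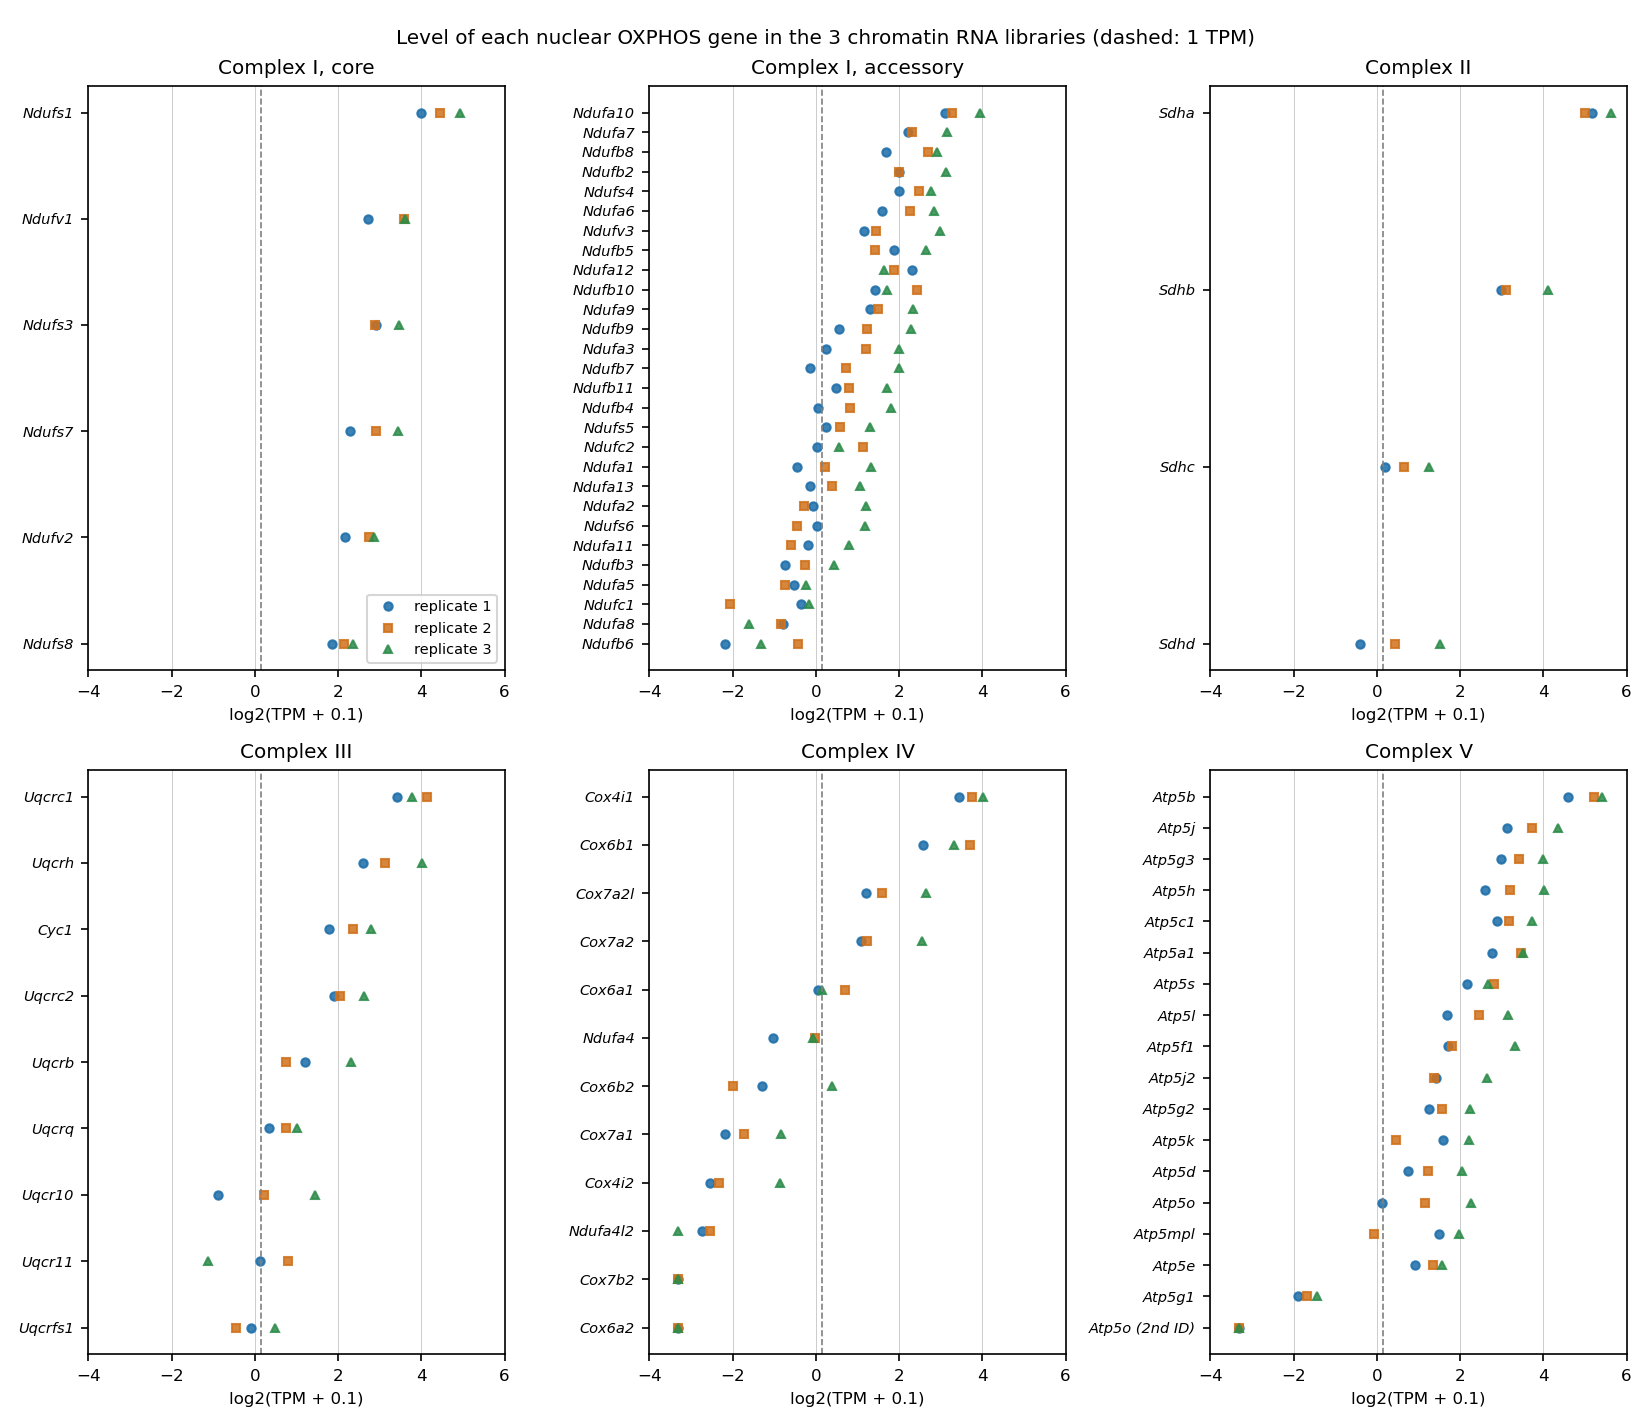
Level of 77 of the 78 genes as log2(TPM + 0.1), with 1 point per library (circle, square and triangle for replicates 1, 2 and 3), in panels by complex, ordered by mean level. Sdha and Atp5b lie farthest right, at means of 39.0 and 34.5 TPM, the core subunits of complex I that are shown lie right of the dashed line at 1 TPM, and the lower part of complex IV lies left of it.

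Complex I oxidises NADH and passes its electrons to ubiquinone. Its 7 nuclear core subunits, which carry the flavin and the iron-sulfur clusters and are conserved from bacteria, had a median of 6.48, 7.46 and 10.9 TPM in the 3 libraries, and all 7 were at 1 TPM or more throughout. The 28 accessory subunits, which surround that core, had medians of 1.08, 1.88 and 3.17 TPM, and 15 of 28 reached 1 TPM throughout. The core median exceeded the accessory median in each library, and in no library did the lowest core subunit, Ndufs8 with 3.49, 4.32 and 5.06 TPM, fall below the accessory median.

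Ndufs1, an iron-sulfur subunit of the NADH-oxidising arm (chr1:63143596-63176833, minus strand, GRCm38), was the highest gene of complex I, with 15.8, 21.7 and 30.4 TPM. Ndufa10, an accessory subunit, had 8.45, 9.62 and 15.2 TPM, and Ndufv1, which binds NADH and the flavin, had 6.48, 11.9 and 12.0 TPM. Ndufs1 stood above both in each library, while Ndufa10 and Ndufv1 overlapped. The lowest member, the accessory subunit Ndufb6, had 0.12, 0.64 and 0.30 TPM from 1, 5.56 and 1 expected counts. Ndufb4 and Ndufs6, accessory subunits whose pattern also matched a copy without a coding transcript, had means of 2.00 ± 1.25 and 1.23 ± 0.815 TPM (SD, n = 3).

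Complex II, succinate dehydrogenase, belongs both to the citric acid cycle and to electron transport. Its flavoprotein subunit Sdha (chr13:74322254-74350280, minus strand) had 36.1, 31.9 and 49.1 TPM, the highest mean of all 78 genes at 39.0 ± 8.95 TPM (SD, n = 3). Sdhb, the iron-sulfur subunit, had 7.81, 8.50 and 17.2 TPM. The membrane anchors Sdhc and Sdhd, which hold the heme and ubiquinone site, had 1.05, 1.48 and 2.29 TPM, and 0.66, 1.24 and 2.78 TPM. Each catalytic subunit was above each anchor in every library, and the anchors overlapped each other.

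Complex III passes electrons from ubiquinol to cytochrome c. Its core protein Uqcrc1 had 10.5, 17.6 and 13.5 TPM and the other core protein, Uqcrc2, 3.65, 3.99 and 6.06 TPM. The hinge protein Uqcrh had 5.96, 8.66 and 16.0 TPM. Among the redox subunits, cytochrome c1 (Cyc1) had 3.35, 5.03 and 6.79 TPM, whereas the Rieske iron-sulfur protein (Uqcrfs1) had 0.83, 0.63 and 1.29 TPM and the lowest mean of the complex. Uqcrc1 was the single one of these genes to be highest in replicate 2. In all, 6 of 9 genes of complex III reached 1 TPM in every library.

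Complex IV, cytochrome c oxidase, transfers electrons to oxygen. Its 12 members had the lowest median of the complexes, at 0.35, 0.54 and 0.93 TPM, and 4 of the 12 reached 1 TPM in every library. Several of its subunits exist as paralogue pairs in which one form is widespread and the other restricted to muscle, lung or testis, and the restricted forms are members here. In the gene tables the restricted forms averaged at most 0.557 TPM, in Cox6b2. The low rank of complex IV turned with the genes counted: when only genes at 1 TPM or more in at least 1 library were kept, its median of log2(TPM + 0.1) went from -0.46 to 1.86, above the 1.57 of complex III. The name patterns also leave out widespread subunits of the complex at higher levels, among them Cox7c, Cox5a, Cox6c and Cox5b with means of 22.9, 9.56, 6.16 and 5.17 TPM.

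Cox4i1, the widespread form of subunit 4, had 10.7, 13.4 and 16.1 TPM, and its lung form Cox4i2 had 0.07, 0.10 and 0.45 TPM from 1, 1 and 3 expected counts. Cox6b1 had 5.88, 12.9 and 9.92 TPM, and its testis form Cox6b2 had 0.31, 0.15 and 1.21 TPM. The values of the forms did not overlap in either pair, though Cox6b2 in replicate 3 was above the widespread Cox6a1 and Ndufa4 in that library. Cox6a1 had 0.94, 1.53 and 1.00 TPM, and the heart and muscle form Cox6a2 had 0 counts in all 3 libraries. Cox7a2, the widespread form of subunit 7a, had 2.01, 2.25 and 5.75 TPM, and the heart and muscle form Cox7a1 had 0.12, 0.20 and 0.46 TPM from 1 expected count per library. In each pair the widespread form was the higher one in every library of the gene tables. Cox7a2l, which takes part in joining complexes III and IV into supercomplexes, had 2.22, 2.88 and 6.13 TPM, overlapping Cox7a2. Cox7b2, a testis form, also had 0 counts throughout, and a count of 0 allows up to 0.184, 0.185 and 0.241 CPM (counts relative to the library's total) in replicates 1, 2 and 3. Ndufa4, once assigned to complex I and now to complex IV, had 0.39, 0.88 and 0.86 TPM, and its hypoxia-induced paralogue Ndufa4l2 had 0.05, 0.07 and 0 TPM. Muscle genes taken as context (Ckm, Myh7, Tnnt2, Myh2 and Actn2) reached at most 0.207 TPM on average, in Ckm, and Myh2 and Actn2 were at 0 counts. In the second tables Actn2, Myh7 and Ckm had means of 17.0, 3.49 and 1.48 TPM, and Cox7a1 had 6.15 TPM, all above their levels in the gene tables.

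Complex V, ATP synthase, consists of the F1 head that makes ATP, a rotating ring of c subunits, and a peripheral stalk. The median of its 18 genes was 3.00, 3.12 and 6.20 TPM, and 14 of 18 genes were at 1 TPM or more throughout. The catalytic beta subunit Atp5b (chr10:128083273-128090391, plus strand) had 24.0, 36.9 and 42.5 TPM. Peripheral stalk genes were Atp5j with 8.59, 13.2 and 20.3 TPM and Atp5h with 5.95, 9.12 and 15.9 TPM. Atp5b exceeded each of them in every library. Over the 5 F1 genes the median was 8.96 ± 2.27 TPM (SD, n = 3), and each reached 1 TPM in all libraries.

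The c-ring is encoded by 3 genes whose mature protein is the same. Atp5g3 had 7.73, 10.6 and 15.7 TPM, Atp5g2 had 2.27, 2.87 and 4.59 TPM, and Atp5g1 had 0.17, 0.21 and 0.27 TPM. The order Atp5g3, Atp5g2, Atp5g1 held in every library with no overlap between the genes. The gap was wider in TPM than in counts, since Atp5g1 had 17.6, 20.0 and 17.0 expected counts against 32.0, 26.0 and 26.6 for Atp5g2, at mean effective lengths of 4182 and 450 bases. The level of Atp5g1 was 1.13 TPM in the second tables. The second identifier of Atp5o, a stalk gene, had 0 counts, and the first had 0.98, 2.12 and 4.72 TPM.

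The list was set beside other gene lists as differences of medians of log2(TPM + 0.1) in each library, with no test. Against the 13 mitochondrially encoded subunits, the nuclear list was lower by 3.85, 3.37 and 2.42 in replicates 1, 2 and 3. The mean difference was -3.21 ± 0.73 (SD, n = 3). Genes in mitochondrial DNA are not part of nuclear chromatin, so this difference does not compare transcription of the 2 sets of genes. The mitochondrially encoded list held 18691, 6960 and 4934 expected counts in replicates 1, 2 and 3. How its RNA came into the libraries was not tested. mt-Co1 was highest at 331, 124 and 157 TPM, followed by mt-Atp8 and mt-Nd6 at means of 111 and 46.4 TPM. The gene tables list mt-Nd4l at 0 in every library, where the second tables give 37.2 TPM. They also list mt-Co2 at 29.8, 0 and 0 TPM and mt-Co3 at 0.14, 51.6 and 0.22 TPM, while the second tables give means of 52.7 and 80.2 TPM. Likewise mt-Atp6 is listed at 15.5, 0 and 40.2 TPM and mt-Nd3 at 21.3, 11.2 and 0 TPM, against means of 40.0 and 27.5 TPM. In every library 8 of the 13 genes reached 1 TPM in the gene tables and 13 in the second tables. These single genes are therefore uncertain in the gene tables, and why they differ was not tested.

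Against 21950 other protein-coding genes, the nuclear list was higher by 2.53, 2.48 and 2.83 (mean 2.61 ± 0.19). That comparison includes 6867 genes with no counts at all. Among genes at 1 TPM or more in every library, 49 members lay below the 8893 other coding genes, by -0.92, -0.69 and -0.74 (mean -0.78 ± 0.12). Members were thus detected more often than the 40.6% background, and those detected had lower levels than other detected genes. Against 85 cytosolic ribosomal protein genes, another large set of housekeeping genes with many short members, the list was lower by 1.50, 1.86 and 1.31 (mean -1.56 ± 0.28). Among them Rpl10, Rpl3 and Rps9 were highest at 117, 56.8 and 52.1 TPM, and Rpl10l and Rpl39l had 0 TPM.

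**Figure D2:**
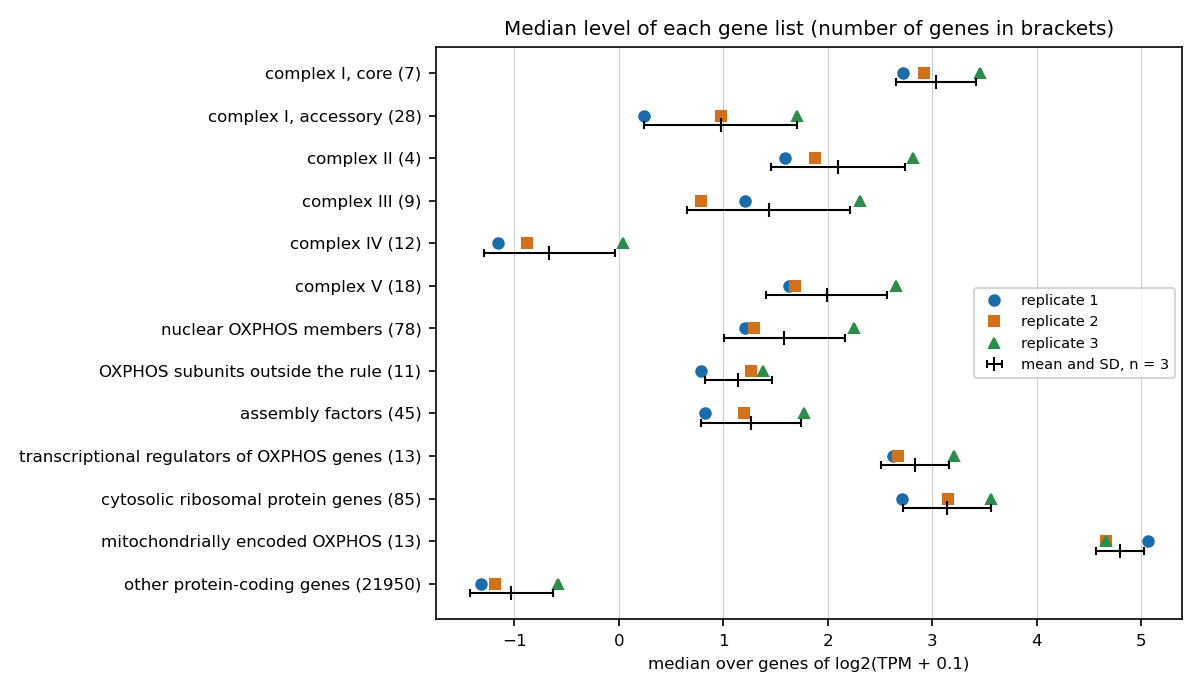
Median over genes of log2(TPM + 0.1) for each list, with 1 point per library and the mean with its SD (n = 3) as a black bar below. Complex IV and the other protein-coding genes lie lowest, the mitochondrially encoded list lies highest, and replicate 3 is the highest library for every list shown except the mitochondrially encoded one, where replicate 1 is highest.

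The list of 11 genes missed by the name patterns holds subunits and the cytochrome c genes Cycs and Cyct. Its median was 1.62, 2.30 and 2.51 TPM, below the 2.21, 2.35 and 4.66 TPM of the members and closest to that in replicate 2. In the second tables the order turned, with medians of 9.22 and 6.15 TPM. By the gene tables, 6 of 11 reached 1 TPM in every library. Cox7c, a small subunit of complex IV, had 19.6, 19.1 and 30.1 TPM, higher than Cox4i1 in each library. Ndufab1, the mitochondrial acyl carrier protein and a subunit of complex I, had 10.5, 12.4 and 26.4 TPM. Cox5a had 9.05, 6.86 and 12.8 TPM. Cytochrome c (Cycs) had 1.62, 2.30 and 2.50 TPM, and the testis forms Cox8c and Cyct had 0 counts.

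Assembly factors, which build the complexes without staying in them, had a median of 1.67, 2.20 and 3.32 TPM over 45 genes, with 26 of 45 at 1 TPM in every library. The highest were Cox16 and Surf1 for complex IV and Foxred1 for complex I, at 17.0 ± 6.83, 12.7 ± 3.93 and 13.9 ± 4.49 TPM (SD, n = 3). The lowest was the copper chaperone Sco2 at 0.183 TPM. Transcriptional regulators of mitochondrial genes had a median of 6.05, 6.29 and 9.14 TPM, and 11 of 13 reached 1 TPM throughout. Nfe2l2, a stress-response regulator, had 189, 86.1 and 228 TPM, and the estrogen-related receptor Esrra and the coactivator Pprc1 had means of 22.7 and 14.9 TPM. Nrf1, which binds many promoters of these genes, had 12.4, 11.8 and 19.6 TPM. The coactivator Ppargc1a had 0.02, 0.05 and 0.24 TPM, and its relative Ppargc1b had 1.91, 3.88 and 3.15 TPM.

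The annotation gives many of these genes isoforms that hold an intron (retained_intron) or have no open reading frame (processed_transcript), and the authors' transcript tables divide each gene's level among them. Retained-intron isoforms held 46.0%, 44.1% and 46.1% of the summed TPM of all members, and protein-coding isoforms 40.8%, 42.4% and 39.4%. Processed transcripts held 12.9 ± 0.713% and isoforms annotated for nonsense-mediated decay 0.787 ± 0.249% (SD, n = 3). On the count scale the order turned, with 52.7 ± 3.03% of the counts in protein-coding and 39.7 ± 2.30% in retained-intron isoforms. Single genes went either way, as Sdha and Ndufb7 show.

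For 41 members that have such a noncoding isoform and reached 1 TPM in all 3 libraries, the median noncoding share of the gene's TPM was 63.9%, 59.8% and 70.0% in replicates 1, 2 and 3, and 68.2% on mean TPM. Over 7459 protein-coding genes treated the same way it was 48.4%, and over 70 ribosomal protein genes 65.8%. The share was over 50% in 26 of the 41 members, against 47.5% of the coding genes. Among the complexes, the medians on mean TPM ran from 53.4% in complex III (6 genes) to 74.4% in complex IV (4 genes).

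Ndufb10, an accessory subunit of complex I, had 100% of its TPM in noncoding isoforms in all 3 libraries, led by a retained-intron isoform of 3 exons with 1.19, 1.56 and 1.56 TPM. Ndufa7 and Ndufa6 had shares of 91.5 ± 6.79% and 90.4 ± 5.27%, Cox6b1 87.8 ± 4.61% and the ATP synthase subunit Atp5l 87.4 ± 8.06% (SD, n = 3). In Cox6b1 1 retained-intron isoform of 3 exons held 5.40, 9.74 and 8.23 TPM, while the coding isoform of 4 exons held 0.48, 1.35 and 1.69 TPM. At the other end, Uqcrq had 0% in every library and Atp5d 1.02 ± 2.07%. Cox7a2l had 14.8 ± 6.84%, Ndufa9 21.3 ± 10.4% and the alpha subunit gene Atp5a1 23.6 ± 4.87%. The extremes did not overlap in any library. Uqcrq and Atp5d have no isoform annotated with a retained intron, so their shares are set in part by the annotation.

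The highest members were divided too. Sdha had a coding isoform of 15 exons at 9.56, 12.8 and 15.8 TPM, next to retained-intron isoforms of 2 exons at 9.70, 7.69 and 8.37 TPM and at 7.83, 4.04 and 6.67 TPM. Its noncoding share was 66.9 ± 7.80% of TPM, but 23.0% of its counts. Atp5b had its coding isoform of 10 exons at 4.65, 8.73 and 7.32 TPM and a processed transcript of 2 exons at 3.78, 11.0 and 8.53 TPM, the highest of its isoforms on average. In Ndufs1 both retained-intron and coding isoforms were long, and the noncoding share was 57.5 ± 5.79% of TPM and 46.1% of counts.

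The level of a gene also went with whether such an isoform is annotated. The 54 members with a noncoding isoform had a median of 4.13 TPM and 41 of them reached 1 TPM in every library, against a median of 1.30 TPM and 8 of 24 for members without one. Counting coding isoforms alone, the medians were 1.72 and 1.30 TPM. Over all coding genes the same split gave medians of 3.51 TPM for 12465 genes and 0 TPM for 9563 genes. Across 49 detected members, the level correlated with the number of exons at a Spearman's rho of 0.62 and with the genomic span at 0.34, against 0.37 and 0.22 over 8932 detected coding genes. These are correlations across genes, which share the same libraries and are not independent. Detected members were shorter than other genes, with a median span of 8.37 kb and 5 exons against 26.4 kb and 10 exons.

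**Figure D3:**
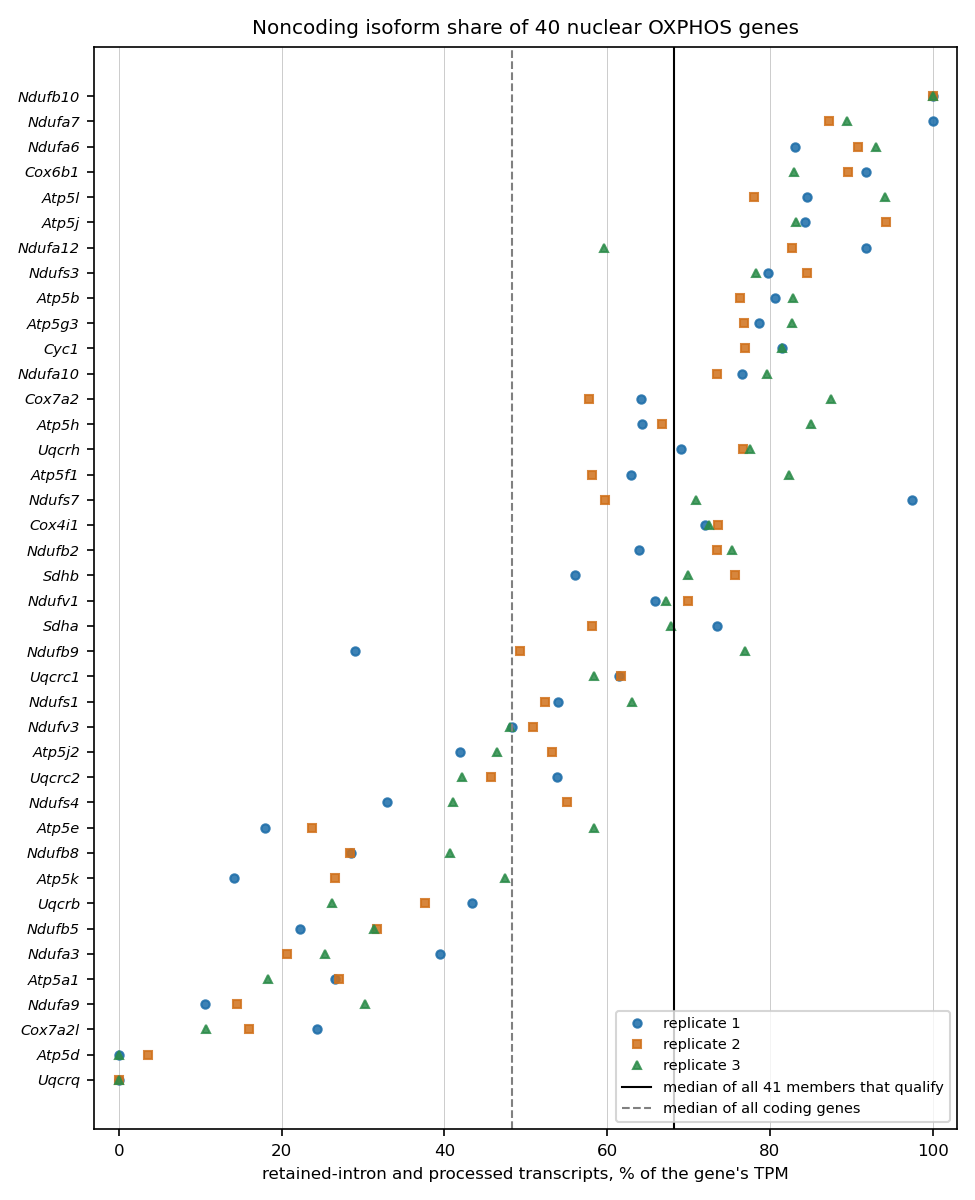
Share of each gene's TPM in retained-intron and processed transcripts, in percent, for 40 of the 41 members that have such an isoform and reached 1 TPM in all 3 libraries, with 1 point per library. The solid line is the median of the 41 genes (68.2%) and the dashed line the median of all coding genes (48.4%), and Ndufb10 sits at 100% and Uqcrq at 0% in all libraries.

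How the genes varied between the 3 libraries was examined on counts scaled with TMM (trimmed mean of M-values) factors, as CPM. Counts limit this: 18 members had a mean count of at least 100, and 61 passed edgeR's filter on low counts. Among the 18, Ndufa10 varied least, with 11.1, 11.0 and 11.0 CPM and a coefficient of variation of 0.856%. Atp5c1, the gamma subunit of the F1 head, and Atp5g3 followed with 5.33% and 6.01%, and Sdha and Ndufs1 had 11.3% and 11.4%. Counting error alone is larger than the spread of Ndufa10, Atp5c1 and Atp5g3. These genes had 153 to 184, 167 to 208 and 121 to 132 counts per library.

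Ndufb7, an accessory subunit of complex I, varied most, with 4.90, 7.36 and 9.82 CPM and a coefficient of 33.4%. Atp5f1, subunit b of the stalk, had 6.60, 7.64 and 11.4 CPM (29.8%). Both were lowest in replicate 1 and highest in replicate 3. Ndufv1 had 9.08, 13.1 and 8.06 CPM (26.6%) and Uqcrc1 15.7, 22.2 and 14.2 CPM (24.4%), both highest in replicate 2. Cyc1 had 6.54, 9.74 and 9.89 CPM (21.7%). Nearly all counts of Ndufb7 (95.8%, against 64.7% of its TPM) and most of those of Atp5f1 (72.0%) were in noncoding isoforms. The shares of counts were 48.9%, 56.6% and 80.1% in Ndufv1, Uqcrc1 and Cyc1. Among the genes that varied least, Ndufa10, Atp5g3, Sdha and Ndufs1 had 47.3%, 82.4%, 23.0% and 46.1%, and Atp5c1 has no such isoform annotated.

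**Figure D4:**
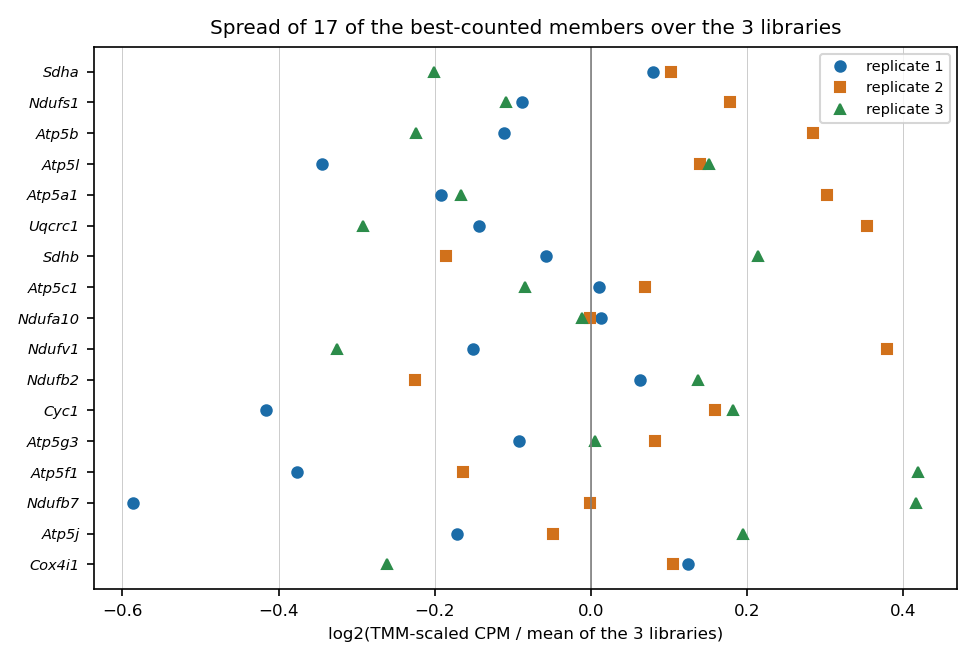
TMM-scaled CPM of 17 of the 18 members with a mean count of at least 100, as the log2 ratio to the mean of the 3 libraries, with 1 point per library and genes ordered by mean count. Ndufa10 points lie on each other near 0, and Ndufb7 is spread widest, from 4.90 CPM in replicate 1 to 9.82 CPM in replicate 3.

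Of the 61 members tested, 24.6%, 27.9% and 47.5% had their highest CPM in replicates 1, 2 and 3, against 29.0%, 35.6% and 35.4% of all 15065 genes tested. By TPM, 63 members were highest in replicate 3, 10 in replicate 2 and 2 in replicate 1, and 44, 23 and 8 after TPM was rescaled over coding genes. Fewer members were thus highest in replicate 3 once the coding share of TPM was taken out. The libraries with the highest TPM were not counted for other coding genes. Their median TPM was also highest in replicate 3, at 0.30, 0.34 and 0.57 in replicates 1, 2 and 3. Median biological coefficients of variation from edgeR were 0.237 for members and 0.209 for all genes tested, and 0.201 and 0.189 where the mean count was at least 100.

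Starting RNA differed 4-fold between libraries, and a slope on its log2 value was the single comparison with a test in this design. No member was called: 0 of 61 at an adjusted p below 0.05 in edgeR's quasi-likelihood test, where 0.584% of 15065 genes were called, 83 higher and 5 lower with more RNA. A share of that size would leave fewer than 1 call among 61 members. The smallest adjusted p was 0.498, for Atp5mpl, a small membrane subunit of ATP synthase, with a slope of 1.00 ± 0.38 (SE) in log2 per doubling, from 20, 4 and 9 expected counts. It was also the single member with an unadjusted p under 0.05, against 1017 of all genes. DESeq2 called 0 of 37 members with an adjusted p, where 0.726% of 11852 genes were called, and had 0 members with an unadjusted p under 0.05. The slopes were negative in 36 members and positive in 25, against 7424 negative and 7641 positive over all 15065 genes tested. With 1 library per amount, amount and library cannot be told apart.

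In the second transcript tables, edgeR called 1 of 71 members, Ndufb2, against 0.66% of 23931 genes. Ndufb2, an accessory subunit of complex I, had 397, 1042 and 548 estimated counts there, a slope of -0.74 ± 0.15 (SE) and an adjusted p of 0.0236. In the gene tables it had 163, 112 and 147 expected counts, highest in replicate 1, and a slope of 0.14 ± 0.21 with an adjusted p of 0.999 in edgeR. In these counts, which are not scaled for depth, the order of the libraries was reversed between the tables. Scaled with TMM, the gene tables gave 9.87, 8.08 and 10.4 CPM, lowest in replicate 2 and highest in replicate 3. In the second tables a retained-intron isoform of 2 exons carried most of the difference, at 20.4 TPM against 0.763 TPM in the first. Ndufb2 overlaps Braf and a noncoding gene on the opposite strand and another gene on its own strand, and their part in this was not tested.

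Levels in the second tables were higher for most members. Across the 49 detected members, the ratio of the second to the gene tables had a median of 1.94 and exceeded 1 in 46, against a median of 1.54 over 8942 coding genes, and 65 of 78 members reached 1 TPM in every library there, against a background of 51.6%. The order of the genes was largely kept, with a Spearman's rho of 0.86 across these 49 genes, against 0.93 over the 8942 coding genes. The largest ratios were in genes with few counts: Cox7a1 at 23.6, Cox4i2 at 6.10 and Atp5g1 at 5.21. Cox7a1 had 4.12, 6.46 and 7.86 TPM there, in place of values under 1 TPM, so whether this muscle form is present on chromatin depends on the table used. The smallest ratios were those of Atp5s (0.935), Ndufb11 (0.949) and Atp5e (0.970).

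**Figure D5:**
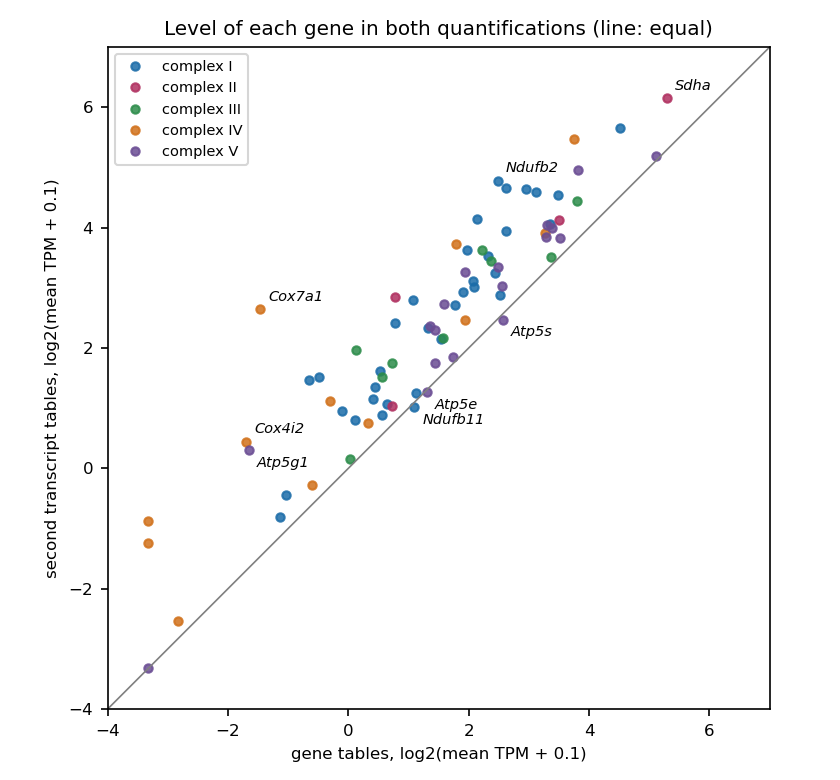
Mean TPM of the 3 libraries for 77 of the 78 genes in the gene tables (horizontal) and in the second transcript tables (vertical), both as log2(mean TPM + 0.1), coloured by complex, with a line where both are equal. Most points lie above the line, Cox7a1 lies farthest above it, and Atp5s, Ndufb11 and Atp5e lie just below it.

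Many members sit close to another gene. A coding gene on the opposite strand starts within 1000 bp of the start of 31 of 78 members (39.7%), against 10.8% of all coding genes and 17.8% of coding genes at 1 TPM in every library. In 21 of the 31 the partner itself averaged at least 1 TPM, and this was not counted for the partners of other coding genes. Ndufs1 starts 8 bp from the elongation factor gene Eef1b2 (10.5 TPM), Ndufa7 10 bp from the ribosomal protein gene Rps28 (10.7 TPM) and Sdha 29 bp from Ccdc127 (2.45 TPM). Ndufa2 starts 99 bp from Ik, a splicing factor gene at 90.5 TPM, and has 1.26 TPM itself. Atp5j starts 700 bp from Gabpa, which encodes a subunit of a regulator of OXPHOS genes, and they averaged 14.0 and 7.12 TPM. Opposite-strand genes overlap 28 members (35.9%) and same-strand genes 12 (15.4%). Such overlaps were not counted over all coding genes, so these shares have no background beside them. Whether strand was used in counting was not given in the sources used here, and reads from members and these overlapping genes may have been assigned to either.

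Near-identical copies also touch the members. With at least 95% identity over at least 150 bases, 18 of 78 members had copies elsewhere in the genome. They had 32 copy genes in all, each a pseudogene except Gm5426, a copy of Atp5l. Copies were not counted for other coding genes. Together the copies held 210 expected counts against 21003 in the members over the 3 libraries, and no member had fewer counts than its copies. On the TPM scale the copies were higher than the member in 4 cases. Uqcr11, an accessory subunit of complex III, had a mean of 0.99 TPM against 11.3 TPM in its copies, from 15 against 7 counts. The accessory subunits of complex I Ndufb4, Ndufa12 and Ndufs5 had 2.00, 3.82 and 1.61 TPM against 5.01, 5.34 and 3.30 TPM in their copies. In counts Ndufb4 was nearest to its copy, with 51.8 against 50.3. The levels of these 4 genes are uncertain, since reads could have been split between gene and copy. For 5 members a small RNA gene lies inside the gene, among them Atp5b, which hosts the snoRNA Snord59a. Small RNA genes inside other coding genes were not counted, so this number has no background beside it.

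The promoters of these genes are known for sites of NRF1, of ETS-family factors such as GABP, and of YY1. RefSeq windows on GRCm38.p6, from 250 bases before to 50 after the gene start, were found for 60 of 77 symbols, as 65 promoters. They were searched on both strands for 5 motifs, and in 1 of the 65 windows matches of 2 different motifs overlapped. NRF1 letters, CGCATGCG, were in 13.8% of member promoters, 2.62% of 20150 coding promoters and 4.23% of 9239 promoters of detected coding genes. YY1 letters, AAGATGGC, were in 13.8%, 3.11% and 5.11%, and 8 of the 9 matches lay after the gene start. ETS letters, CCGGAAG, were in 23.1%, 11.9% and 19.5%. SP1 letters, GGGCGG, had shares of 40.0%, 47.8% and 63.1%, lowest in the members. The TATA box, TATAAA, had shares of 10.8%, 12.1% and 6.87%. Member promoters had a median GC content of 57.3% and 19 CpG, against 57% and 14 for all coding promoters and 61.0% and 21 for those of detected coding genes.

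Levels by motif are given without a test. Median levels of genes with and without a match were 2.91 and 3.34 TPM for NRF1, 4.29 and 3.24 TPM for ETS and 3.75 and 2.91 TPM for YY1. The promoter stretches below are shown because Atp5l holds an NRF1 and an ETS match, Cox6a1 an NRF1 match and, outside the stretch, an ETS match, Uqcrh an ETS match, and Atp5b, the second-highest member, none of the NRF1, ETS and YY1 matches. Each is written 5′ to 3′ on the strand of the gene, from RefSeq, limited to bases before the gene that no annotated exon covers, with NRF1 and ETS matches in capitals (CTTCCGG is the ETS motif on the other strand). They lie at chr9:44920752-44920992 (minus), chr5:115348982-115349129 (minus), chr4:116075072-116075268 (minus) and chr10:128083057-128083272 (plus).
Atp5l: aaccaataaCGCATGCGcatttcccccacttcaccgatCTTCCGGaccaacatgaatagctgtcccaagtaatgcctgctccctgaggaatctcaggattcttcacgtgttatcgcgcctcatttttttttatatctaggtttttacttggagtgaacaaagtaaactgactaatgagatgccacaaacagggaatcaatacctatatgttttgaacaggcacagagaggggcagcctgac
Cox6a1: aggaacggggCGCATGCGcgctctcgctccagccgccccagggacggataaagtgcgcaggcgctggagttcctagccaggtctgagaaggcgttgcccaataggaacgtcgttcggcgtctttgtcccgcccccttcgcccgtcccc
Uqcrh: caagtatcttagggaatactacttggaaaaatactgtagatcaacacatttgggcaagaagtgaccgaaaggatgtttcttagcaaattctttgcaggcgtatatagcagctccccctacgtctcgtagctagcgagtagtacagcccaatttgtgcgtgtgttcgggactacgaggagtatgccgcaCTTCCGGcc
Atp5b: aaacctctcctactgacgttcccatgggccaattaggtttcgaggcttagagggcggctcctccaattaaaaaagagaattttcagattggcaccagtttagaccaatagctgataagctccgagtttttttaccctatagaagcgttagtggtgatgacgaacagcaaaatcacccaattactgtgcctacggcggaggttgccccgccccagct
In Atp5l the NRF1 and ETS matches begin 241 and 212 bases before the RefSeq gene start, in Cox6a1 the NRF1 match begins 161 and the ETS match 16 bases before it, and in Uqcrh the ETS match begins 10 bases before it. A second ETS match of Atp5l lies after the gene start, outside the stretch. Atp5l had 3.10, 5.35 and 8.82 TPM and Uqcrh 5.96, 8.66 and 16.0 TPM, against 0.94, 1.53 and 1.00 TPM in Cox6a1 and 24.0, 36.9 and 42.5 TPM in Atp5b. The matches are letters in a window and show no binding.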

How the data were processed

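Total RNA of the chromatin fraction, depleted of ribosomal RNA, was sequenced in 3 libraries. Expected counts, deposited by the authors per gene and per transcript, have a column layout like that of RSEM, and the deposited TPM values share 1 fixed total per file, small RNAs included. Estimated counts and TPM in a second set of transcript tables were also deposited by the authors, in a layout like that of kallisto. Strand use, aligner, tool names and tool versions were not given in the sources used here. Reads were quantified against annotation M21 of mm10, per the labels and the file headers.

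All 55536 gene identifiers were matched to GENCODE M21 on GRCm38, with 1-based coordinates. Totals were 16317439, 16245280 and 12439931 expected counts in replicates 1, 2 and 3, and entries that name no gene (phiX, a sequencing control, and others) held 1.08%, 0.299% and 0.332%. A count of 0 allows 3 counts, or 0.184, 0.185 and 0.241 CPM, for counting error only.

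The members, lists, comparisons and the rule for named genes were chosen with earlier results of these data known. Named were the 4 highest members and the lowest of each complex (all of complex II), all members of paralogue sets, the 5 highest and 5 lowest by noncoding isoform share and by coefficient of variation (mean count of at least 100), slope calls, the 3 largest and 3 smallest ratios between quantifications, and the 3 highest and the lowest of each other list. Other members are named where a group of 5 or fewer is listed, or by position, neighbours, copies or promoter motifs, and were chosen after their values were seen. The named values of 1 member are not reported here, and it is not drawn in the figures that show single genes, though list counts and medians include it.

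Levels are TPM. List levels are medians of log2(TPM + 0.1). In R 4.3.3, edgeR 4.0.16 was run on expected counts after rounding, with TMM factors, filterByExpr, glmQLFit and glmQLFTest with a slope on log2 starting RNA, Benjamini-Hochberg adjustment over all genes tested, and adjusted p below 0.05. With 1 library per amount there is 1 residual degree of freedom, so the p-values rest in part on scatter pooled over genes. The slope test was tested on simulated data: of 200 changed genes among 15065, it recovered 79.6% of slopes of 1 and 100% of slopes of 2 per doubling, with 12 other calls, and it made 0 calls without slopes. The changed genes in the simulation came only from genes above a minimum mean count. Every simulated gene had the same scatter, a biological coefficient of variation of 0.21. Tested members reached 0.298, and some had few counts, such as Atp5mpl with a mean of 11. The recovery rates therefore do not cover members with few counts or more scatter. Near-identical copies were sought with BLAST 2.17.0 (at least 95% identity over 150 bases). DESeq2 1.42.0 was an alternative, and Python 3.11.15, numpy 2.4.6, pandas 2.3.3, scipy 1.17.1 and matplotlib 3.10.9 were used. Other alternatives were pseudocounts of 1 and 0.01, posterior mean TPM, the second tables, TPM rescaled over coding genes, other filters and limits, and each replicate left out.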

Additional observations from a re-analysis of the deposited data

How the results depend on the processing

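Of 101 alternative values, 74 kept their direction, and stayed within the spread between libraries, within 1.5 times for counts or on the same side of the threshold, 26 moved and 1 reversed. The reversal was the difference from other protein-coding genes, from 2.61 to -0.91 when only genes at 1 TPM or more in at least 1 library were kept. That filter drops genes below 1 TPM in every library, among them 6867 of the 21950 other coding genes, which had no counts, and 12 of the 78 members. The same difference was 1.49 and 2.87 with pseudocounts of 1 and 0.01, 1.74 with posterior mean TPM, 1.81 in the second tables and 2.84 with TPM rescaled over coding genes. The log2 level of the list moved from 1.67 to 2.68 in the second tables and to 3.95 after rescaling. Complexes I, II, IV and V went from 1.78, 2.13, -0.46 and 2.21 to 2.80, 3.49, 0.94 and 2.88 in the second tables. Rescaling raised complexes I to V to 4.06, 4.41, 3.83, 1.65 and 4.47. Complex IV, with genes at 0, also moved to 0.71 with a pseudocount of 1, to 0.65 with posterior mean TPM and to 1.86 with the filter. The difference from ribosomal protein genes was -1.27 in the second tables. With a limit of 5 TPM, 17 members were detected in place of 49. The second tables called 1 member for a slope (Ndufb2) in place of 0. The noncoding isoform share was 57.3% in the second tables and 57.5% for retained introns alone, in place of 68.2%.

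Leaving out 1 library at a time gave list levels of 1.15 to 1.84. The levels of complex I ran from 1.31 to 1.85, of complex II from 1.75 to 2.39, of complex III from 0.99 to 1.86, of complex IV from -1.02 to -0.20 and of complex V from 1.58 to 2.44. The lowest value of each of these was without replicate 3. The differences ran from -3.61 to -2.89 against the mitochondrially encoded list, from 2.50 to 2.68 against other coding genes and from -1.68 to -1.41 against ribosomal protein genes. Members detected ranged from 49 to 58, and noncoding shares from 65.8% to 68.5%. With 2 libraries the slope has no residual degrees of freedom, and its median over members was 0.06, -0.07 and -0.03 without replicates 1, 2 and 3, with no test. No paired analysis was possible because there is 1 group. The cause of the moves and of the reversal was not tested. Depth limits the low members: 5 members had fewer than 3 counts in every library.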
